A study of Danio rerio with 20 samples.

Results

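Sarcomere genes of fast and slow muscle were followed in whole wild-type zebrafish larvae exposed to extracts of wastewater. Members were taken from the count table by gene symbol alone. The rule kept every symbol that opens with tnnc, tnni, tnnt, mybpc, mybph, myoz, myom, mylpf, smyhc, myhz, or with tpm, myh, myl or actn and a digit. It gave 83 genes of the 32520 in the table, under 81 distinct symbols. Symbols that stood on a pair of Ensembl identifiers were kept apart, myhz1.1 (ENSDARG00000067990 and ENSDARG00000102414) and smyhc2 (ENSDARG00000103969 and ENSDARG00000111606). By what the symbols are known to encode, 24 members were fast skeletal genes, 11 slow skeletal and 10 cardiac, 13 belonged to smooth muscle or to cells other than muscle, and 25 could not be put in a single class. The label "sarcomere" therefore does not cover the 13 smooth or non-muscle genes, nor tnni3k, a kinase that shares only the start of its name with troponin I and stands among the cardiac genes. Known sarcomere genes with other symbols, such as myha, tpma, mylz3 and cmlc1, fall outside the rule.

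There were 4 groups of 5 libraries, and each library was a pool of 10 whole larvae at 5 days post fertilisation (dpf). SEC JUN20 and SEC OCT20 larvae had been kept from 4 to 5 dpf in fish water with the extract of the June or the October sampling campaign at 20x, where SEC is the labels' name for the extract. CTRL JUN20 and CTRL OCT20 larvae were the controls of the same campaigns. Nothing in the labels says whether the pools came from separate spawns, so the p-values measure the spread between these pools.

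The sarcomere is the contractile unit of striated muscle. Thick filaments of myosin pull on thin filaments of actin, and the thin filaments carry tropomyosin and the troponin complex, in which troponin C binds calcium, troponin I inhibits and troponin T holds the complex to tropomyosin. Thin filaments are anchored by alpha-actinin at the Z-disc and thick filaments are tied together by myomesin at the M-line. Fast, slow and heart muscle use different genes for most of these proteins, and in the zebrafish larva slow fibres form a layer over the deeper bulk of fast fibres.

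Library totals ran from 28832858 to 59922353 counts, and members held 6.55 to 7.34% of each. Biological variation between pools was 10.2%, as a single coefficient of variation common to all genes. Of the 83 members, 82 passed the filter on low counts in the table of 23121 tested genes. The exception was tnni1a, a slow troponin I gene with a mean of 0.18 CPM over all libraries, where CPM is the count scaled to a common library size. Defining markers of skin, neurons, liver and pancreas were all detected in these whole larvae. Of the heart and smooth muscle markers, 9 of 12 and 11 of 12 symbols were found in the count table. None of the markers found was at 0. The summed level of the 3 skin keratins krt4, krt5 and krt15 moved with both exposures. It was 6085 to 6886 CPM in SEC JUN20, against 8651 to 10924 CPM in CTRL JUN20, and 4257 to 6616 CPM in SEC OCT20, against 8601 to 10875 CPM in CTRL OCT20. The 3 keratins were lower in both campaigns, and their part in the results below was not tested. Because the RNA came from whole animals, fewer muscle cells and less RNA per muscle cell cannot be told apart.

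The October libraries stood apart from each other in a way their labels do not give. A single clone-named gene, si:dkey-269o24.1, had 16 to 29 counts in CTRL replicates 1, 3 and 5 and SEC replicates 4 and 5. It had 106 to 204 counts in SEC replicates 1, 2 and 3 and CTRL replicates 2 and 4. These 5 low-side and 5 high-side libraries hold both groups, and October results are also given within each side, where a comparison rests on 2 libraries against 3.

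Both extracts were compared with the controls of their own campaign to ask how the exposure moved larval gene expression. A total of 12 members fell by 8.23 to 38.7% of the control mean in SEC larvae of both campaigns, among them the fast troponin genes tnnc2, tnnt3a, tnnt3b, tnni2a.1 and tnni2b.1, the fast light chain gene myl1 and the fast Z-disc genes actn3a, myoz1a and myoz1b. Other fast genes were not called in either campaign, such as the light chain genes mylpfa and mylpfb and the Z-disc gene actn3b, and myoz3a was higher in OCT20. None of the fast or slow myosin heavy chain genes was called lower. In JUN20, 16 of 82 members were called lower and 0 higher at an adjusted p under 0.05 (edgeR quasi-likelihood test, Benjamini-Hochberg adjustment over all tested genes). Over all tested genes 10.8% were called in JUN20, 4.9% lower and 5.92% higher. At an unadjusted p under 0.05, 1 member was higher in JUN20, and DESeq2 called 1 higher. In OCT20, 19 members were called lower and 3 higher, where 18% of all tested genes were called, 8.49% lower and 9.54% higher. Members called lower therefore made up 19.5% of those tested in JUN20 and 23.2% in OCT20. The median log2 fold change of the members was -0.10 in JUN20 and -0.10 in OCT20, beside -0.0049 and -0.0144 over all genes. Estimates lay below 0 for 67 members in JUN20 and for 60 in OCT20.

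**Figure D1:**
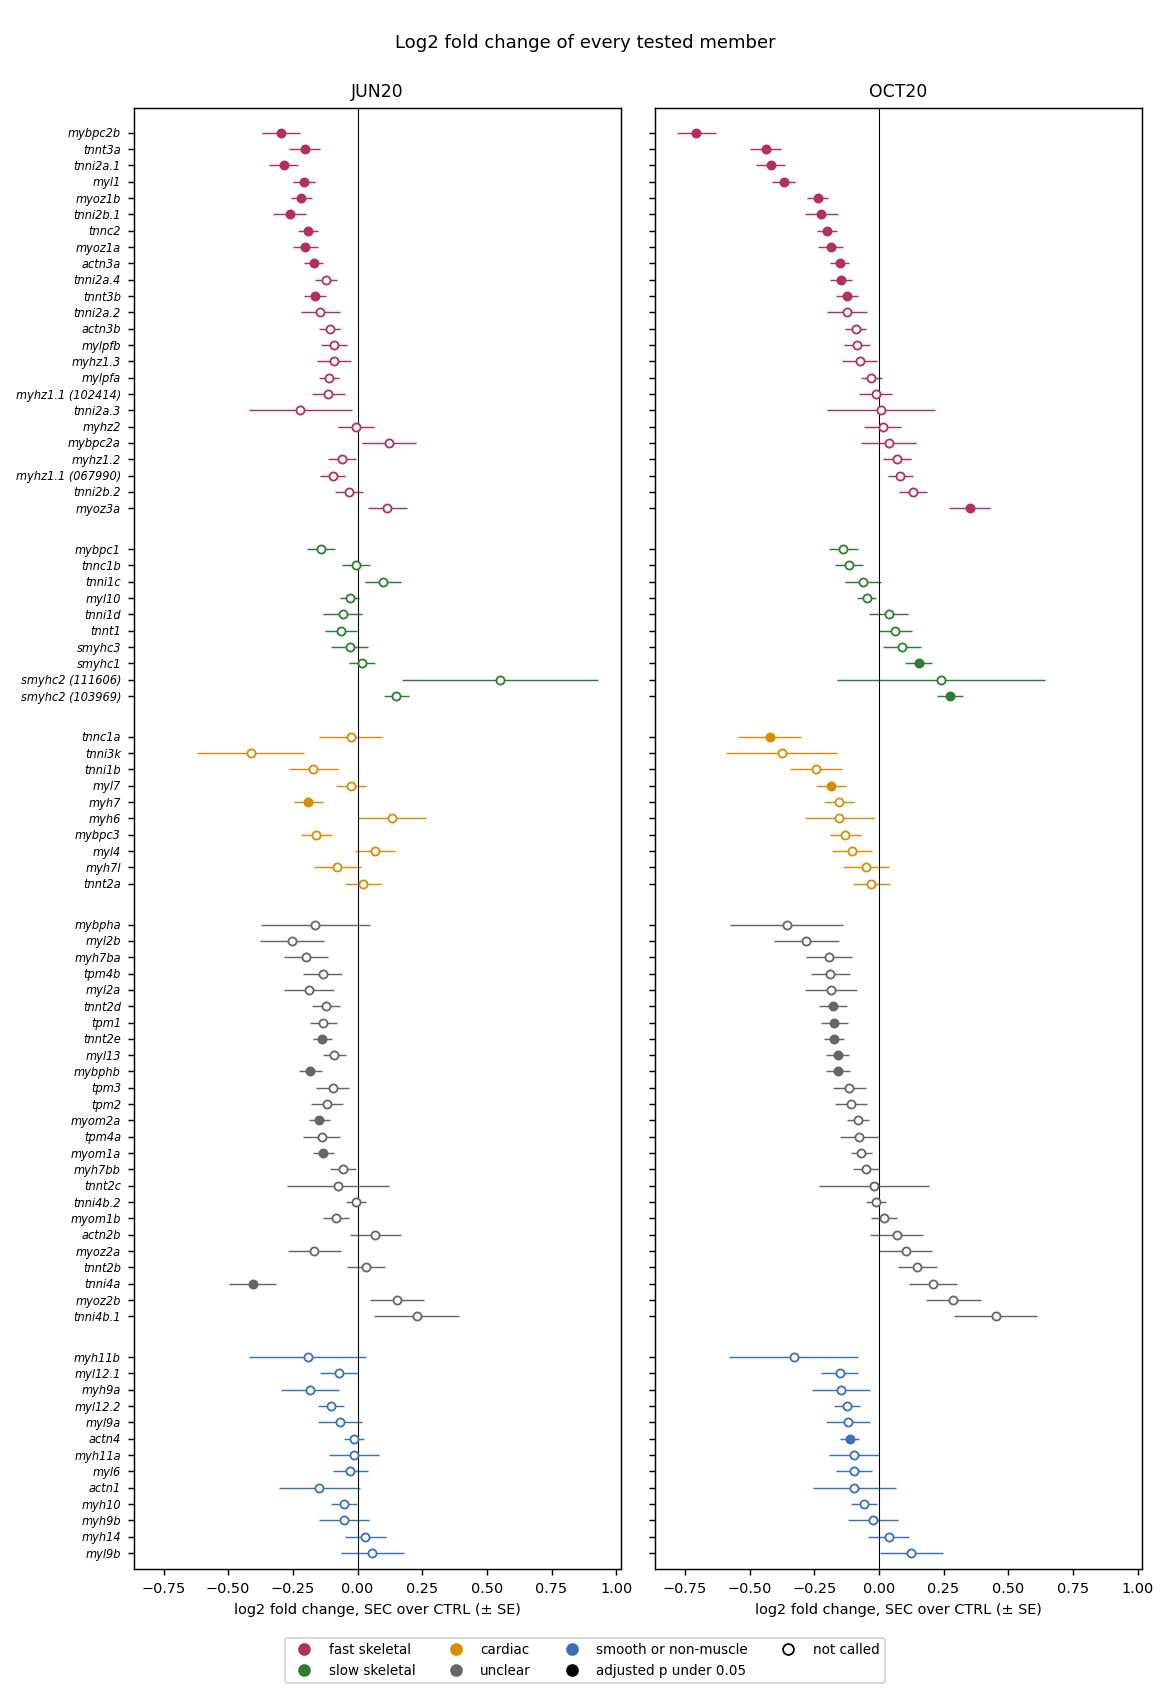
Log2 fold change of SEC over CTRL with its standard error for each of the 82 tested members, JUN20 on the left and OCT20 on the right, ordered within each class by the October estimate; filled points have an adjusted p under 0.05. The filled points left of 0 are mostly fast skeletal genes, 10 in JUN20 and 11 in OCT20, while 2 slow heavy chain genes and myoz3a lie to the right in OCT20.

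The called members divided over the classes as follows, where 4.9% of all tested genes were called lower in JUN20 and 8.49% in OCT20. Differences between the classes were not tested. Of the 24 fast skeletal members, 10 fell in JUN20 and 11 fell in OCT20, and 1 of them, myoz3a, rose in OCT20. None of the 10 tested slow skeletal members was called lower in either campaign, although 1 was lower in JUN20 and 2 in OCT20 at an unadjusted p under 0.05, and DESeq2 called 0 of them lower in both. Within the October high side 1 of them, tnnc1b, was called lower, and 0 within the low side. Among the 10 cardiac members 1 fell in JUN20 (10%) and 2 fell in OCT20 (20%). These counts are too small to set apart from the shares over all genes. Of the 13 smooth or non-muscle genes 0 were called in JUN20, by DESeq2 as well and also at an unadjusted p under 0.05. In OCT20 1 of them fell (7.69%), near the share over all genes. Of the 25 genes with no single class 5 fell in each campaign. The 12 members called lower in both campaigns are 75% of the 16 of JUN20, 63.2% of the 19 of OCT20 and 14.6% of those tested, against 2.51% of all tested genes. These were actn3a, mybpc2b, myl1, myoz1a, myoz1b, tnnc2, tnni2a.1, tnni2b.1, tnnt3a, tnnt3b, mybphb and tnnt2e, 10 of them fast skeletal. The campaigns have separate controls, so these 2 comparisons contrast different libraries. They are not fully separate, because all 20 libraries shared 1 estimate of the spread per gene. The groups did not overlap for 17 members that were lower in JUN20 and 15 that were lower in OCT20, against 6.04% and 4.7% of all tested genes. A single member in each campaign was higher without overlap, smyhc2 in JUN20 and myoz3a in OCT20, against 6.54% and 6.43% of all tested genes.

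Of the 12 members lower in both campaigns, 5 kept both calls under every alternative setting and with any 1 library left out: mybpc2b, myl1, myoz1b, tnnc2 and tnni2a.1. With any 1 library left out, 11 of the 16 members lower in JUN20, 11 of the 19 lower in OCT20 and 2 of the 3 higher in OCT20 were called each time. Within the low side of October 15 members were called lower, where 4.76% of all genes tested there were lower. Within the high side 21 members were called lower, where the share over all genes was 8.6%. Members called higher numbered 2 within the low side and 6 within the high side, against 7.54% and 9.35% of all genes. Of the 19 members lower over all October libraries, 7 were lower on each side, the same 5 genes with tnnt3a and tpm1. Fast skeletal members called lower numbered 8 in the low-side and 6 in the high-side libraries.

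**Figure D2:**
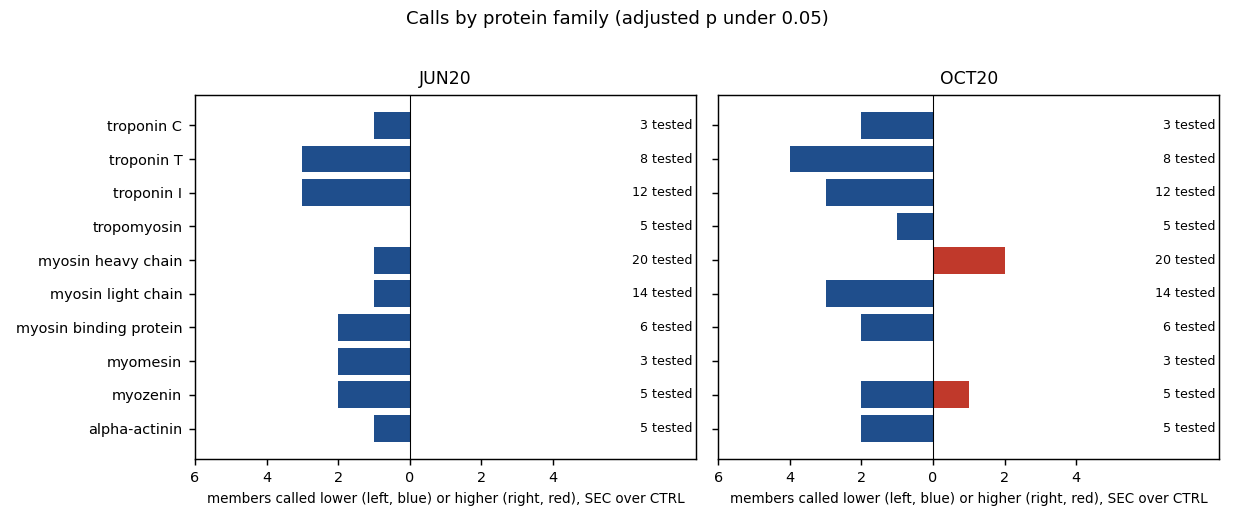
Number of members called lower (bars to the left) or higher (bars to the right) in SEC against CTRL at an adjusted p under 0.05 in each protein family, JUN20 on the left and OCT20 on the right, with the number tested beside each family. In JUN20 troponin T and troponin I have 3 members each to the left, in OCT20 troponin T has 4 and troponin I and the myosin light chains have 3 each, and the 20 tested myosin heavy chain genes have 1 call to the left in JUN20 and 2 to the right in OCT20.

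In the thin filament, 7 of the 23 tested troponin genes fell in JUN20 and 9 fell in OCT20. Over all tested genes 4.9% were called lower in JUN20 and 8.49% in OCT20. tnnc2 (ENSDARG00000070835), which encodes the calcium-binding subunit of fast muscle troponin, had 1784, 1921, 1838, 1891 and 1786 CPM in the SEC JUN20 libraries and 2102, 2191, 2132, 2164 and 1944 CPM in the CTRL JUN20 libraries. In the October campaign it had 1909.8, 1792, 1901, 1784 and 1708 CPM in the SEC OCT20 libraries and 2059, 2088, 2122, 2179 and 2010.1 CPM in the CTRL OCT20 libraries. Every SEC library lay below every CTRL library of its campaign. The log2 fold change of tnnc2 was -0.19 ± 0.04 (SE), adjusted p = 0.00296 in JUN20 and -0.20 ± 0.04 (SE), adjusted p = 0.00089 in OCT20. Its slow counterpart tnnc1b was not called (log2 fold change -0.01 ± 0.05, adjusted p = 0.959 in JUN20 and -0.12 ± 0.05, adjusted p = 0.15 in OCT20), with intervals of 2 standard errors from -0.11 to 0.10 and from -0.22 to -0.01. Within the October high side it was called lower, at -0.18 (adjusted p = 0.0343).

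Both fast troponin T genes fell in both campaigns. tnnt3b (ENSDARG00000068457) had 2148, 2188, 2318, 2287 and 2114 CPM in the SEC JUN20 libraries and 2478, 2605, 2503, 2550.5 and 2263 CPM in the CTRL JUN20 libraries. Its October values were 2300.0, 2261, 2373, 2262 and 2035 CPM in the SEC OCT20 libraries and 2475, 2374, 2497, 2499.5 and 2394 CPM in the CTRL OCT20 libraries. The June groups overlapped through CTRL replicate 5, the lowest control, and the October groups came close but did not overlap. Its log2 fold change was -0.17 ± 0.04 (SE), adjusted p = 0.0151 in JUN20 and -0.12 ± 0.04 (SE), adjusted p = 0.0496 in OCT20. The October call of tnnt3b remained in 3 of 9 alternative settings and in 1 of 10 fits without 1 library. The other copy, tnnt3a (ENSDARG00000030270), had 117, 135, 124, 125 and 117 CPM in the SEC JUN20 libraries and 147, 143, 139, 145 and 139 CPM in the CTRL JUN20 libraries. In October the values of tnnt3a were 88.6, 98.4, 101, 94.0 and 89.4 CPM in the SEC OCT20 libraries and 123, 133, 131, 143 and 107 CPM in the CTRL OCT20 libraries. All SEC libraries were below all CTRL libraries in both campaigns. tnnt3a fell by 13.2% in JUN20 (log2 fold change -0.20 ± 0.06 (SE), adjusted p = 0.0311) and fell by 26.2% in OCT20 (-0.44 ± 0.06 (SE), adjusted p = 1.81e-05). Its June call remained in 3 of 10 fits without 1 library. The difference between the campaigns was -0.23 ± 0.09 with an adjusted p of 0.23, so it was not called.

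tnnt2e (ENSDARG00000045822), a troponin T gene whose fibre type the symbol does not give, had 94.0, 92.9, 98.6, 96.5 and 98.4 CPM in the SEC JUN20 libraries and 109.6, 103, 109, 104 and 103 CPM in the CTRL JUN20 libraries. For tnnt2e in October the values were 108, 100.4, 109, 98.2 and 100.2 CPM in the SEC OCT20 libraries and 122, 116, 116, 111 and 115 CPM in the CTRL OCT20 libraries. The groups did not overlap in either campaign. tnnt2e fell in JUN20 (log2 fold change -0.14 ± 0.04 (SE), adjusted p = 0.0212) and in OCT20 (-0.17 ± 0.04 (SE), adjusted p = 0.00216). The October call of tnnt2e was lost within the high side (adjusted p = 0.191), and its June call remained in 7 of 10 fits without 1 library. tnnt2d fell in OCT20 (log2 fold change -0.18 ± 0.05 (SE), adjusted p = 0.024) and had -0.12 ± 0.05 with an adjusted p of 0.151 in JUN20. The October call of tnnt2d was lost with October libraries alone and within the low side, and remained in 6 of 10 fits without 1 library. The slow troponin T gene tnnt1 and the heart gene tnnt2a were not called in either campaign, with log2 fold changes of -0.06 and 0.02 in JUN20 and of 0.06 and -0.03 in OCT20.

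Troponin I holds the muscle off until calcium binds to troponin C, and its fast form has 6 genes among the members. Of these, tnni2a.1 to tnni2a.4 are direct neighbours in the gene order of assembly GRCz12tu, and tnni2b.1 and tnni2b.2 are neighbours of each other. Because the way reads were divided among such similar copies is not stated, the split within a cluster is uncertain. tnni2a.1 (ENSDARG00000045592) had 42.2, 45.2, 42.5, 39.5 and 45.6 CPM in the SEC JUN20 libraries and 48.3, 50.8, 57.0, 55.3 and 50.5 CPM in the CTRL JUN20 libraries. Its October values were 36.9, 40.8, 36.3, 35.3 and 34.3 CPM in the SEC OCT20 libraries and 51.6, 52.5, 45.8, 47.1 and 48.3 CPM in the CTRL OCT20 libraries. The SEC libraries lay below all CTRL libraries in both campaigns, without overlap. tnni2a.1 fell by 17.9% in JUN20 (log2 fold change -0.28 ± 0.06 (SE), adjusted p = 0.00212) and fell by 25.2% in OCT20 (-0.42 ± 0.06 (SE), adjusted p = 1.43e-05). tnni2a.4 (ENSDARG00000029069), at the other end of the cluster, had 821, 859.6, 869, 841 and 774 CPM in the SEC JUN20 libraries and 900.2, 975, 911, 909 and 831 CPM in the CTRL JUN20 libraries. In October it had 806, 788, 788, 784 and 730.5 CPM in the SEC OCT20 libraries and 875, 863, 853, 904 and 819 CPM in the CTRL OCT20 libraries. The June groups overlapped and the October groups did not. Its log2 fold change was -0.12 ± 0.04 (SE), adjusted p = 0.0751 in JUN20 and -0.15 ± 0.04 (SE), adjusted p = 0.0193 in OCT20. The October call of tnni2a.4 was lost within each October side (adjusted p up to 0.121) and remained in 8 of 10 fits without 1 library. The genes between tnni2a.1 and tnni2a.4 were not called. In JUN20 and OCT20 tnni2a.2 was at -0.14 ± 0.08 and -0.12 ± 0.08, and tnni2a.3 at -0.22 ± 0.20 and 0.01 ± 0.21. In the second cluster tnni2b.1 fell in both campaigns (log2 fold change -0.26 ± 0.06, adjusted p = 0.00926 and -0.22 ± 0.06, adjusted p = 0.0171), whereas tnni2b.2 was not called, at -0.03 ± 0.05 and 0.13 ± 0.05. The October call of tnni2b.1 was lost within each October side (adjusted p up to 0.32). The difference between neighbours was not tested.

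Tropomyosin lies along actin and covers the myosin binding sites at rest. Of its 5 genes among the members, which leave out tpma, 0 were called in JUN20 and 1 fell in OCT20. The shares called lower over all tested genes were 4.9% and 8.49%. In JUN20 1 of the 5 had an unadjusted p under 0.05 and DESeq2 called 0. tpm3 (ENSDARG00000005162) averaged 338 ± 13.8 CPM in SEC JUN20 and 361 ± 16.6 CPM in CTRL JUN20, and 322 ± 22.6 CPM in SEC OCT20 and 348 ± 39.5 CPM in CTRL OCT20 (SD, n = 5 each). Its groups overlapped in both campaigns, and the estimates of -0.10 ± 0.06 and -0.11 ± 0.06 were not called. tpm1 (ENSDARG00000087402) had 194, 193, 194, 182 and 194 CPM in the SEC JUN20 libraries and 202, 199.9, 214, 222 and 210.4 CPM in the CTRL JUN20 libraries. In October the values of tpm1 were 194, 179, 193, 166 and 159 CPM in the SEC OCT20 libraries and 193, 219, 189.9, 205 and 198 CPM in the CTRL OCT20 libraries. June's SEC libraries were all below the controls, but the estimate of -0.13 ± 0.05 missed the threshold (adjusted p = 0.113). October's groups overlapped, and tpm1 was called lower there (-0.17 ± 0.05 (SE), adjusted p = 0.024). That call was lost with a replicate block and with October libraries alone, and remained in 7 of 10 fits without 1 library. All 5 tropomyosin estimates lay below 0 in both campaigns.

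**Figure D3:**
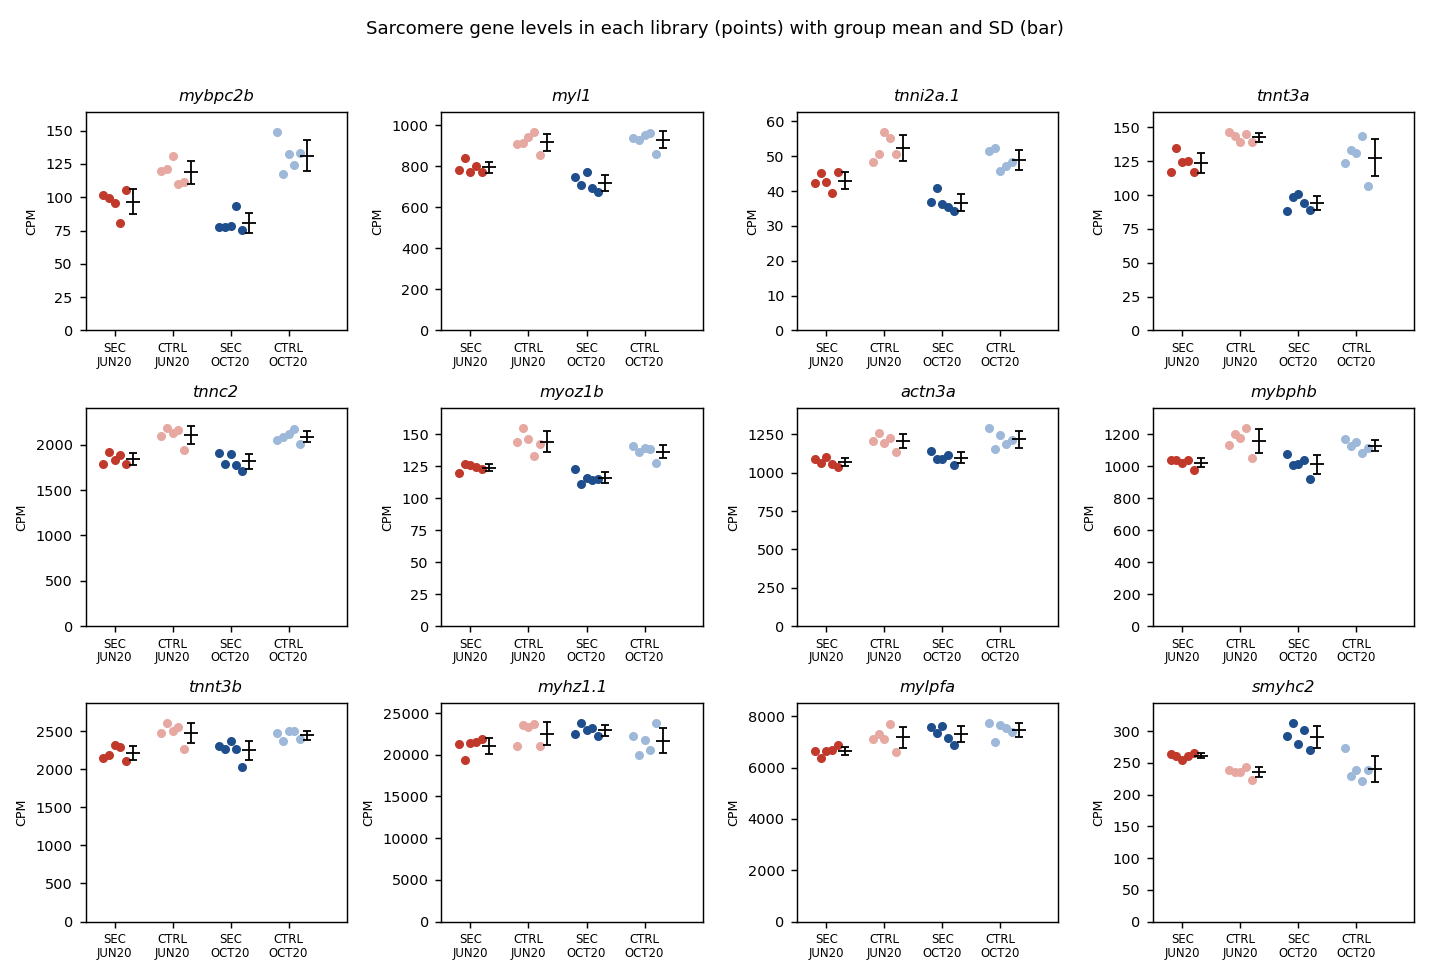
CPM of 12 members in each library (points), with the group mean and SD beside them (bar), for SEC JUN20, CTRL JUN20, SEC OCT20 and CTRL OCT20 from left to right; myhz1.1 is the copy ENSDARG00000067990 and smyhc2 the copy ENSDARG00000103969. In both campaigns the SEC points lie below the CTRL points for mybpc2b, myl1, tnni2a.1, tnnt3a, tnnc2, myoz1b, actn3a and mybphb, while myhz1.1 and mylpfa overlap.

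In the thick filament, 5% of heavy and 7.14% of light chain genes were called lower in JUN20, against 4.9% of all tested genes. In OCT20 0% and 21.4% were, against 8.49% of all tested genes. Differences between the families were not tested. Of 20 tested heavy chain genes 1 fell in JUN20, the cardiac gene myh7, and in OCT20 0 were called lower and 2 rose. The 2 that rose are 10% of the family, near the 9.54% of all tested genes called higher in OCT20. At an unadjusted p under 0.05, 2 heavy chain genes were lower in OCT20, and DESeq2 called 0 lower. myhz1.1 (ENSDARG00000067990), a fast muscle heavy chain, had 21268, 19308, 21414, 21478 and 21833 CPM in the SEC JUN20 libraries and 21000.0, 23564, 23276, 23683 and 21009 CPM in the CTRL JUN20 libraries. For myhz1.1 in October the values were 22462, 23780.0, 22998, 23167 and 22202 CPM in the SEC OCT20 libraries and 22230.0, 19929, 21803, 20537 and 23786 CPM in the CTRL OCT20 libraries. The groups overlapped in both campaigns, and the SEC mean was below the CTRL mean in June and above it in October. The log2 fold change was -0.10 ± 0.05 (SE), adjusted p = 0.226 in JUN20, with an interval of 2 standard errors from -0.19 to 0.00. In OCT20 it was 0.08 ± 0.05 (SE), adjusted p = 0.274, with an interval from -0.01 to 0.18. The other fast heavy chain genes, myhz1.2, myhz1.3, myhz2 and the second myhz1.1, were not called either, with log2 fold changes from -0.11 to -0.01 in JUN20 and from -0.07 to 0.07 in OCT20. Within the October high side myhz1.1 (ENSDARG00000067990) and myhz2 were called higher, at 0.20 (adjusted p = 0.0288) and 0.18 (adjusted p = 0.0457), and within the low side no fast heavy chain gene was called. These copies resemble each other closely, and reads may have been divided among them. Summed over the 5 genes the level was 42318 ± 1403 CPM in SEC JUN20 and 44560 ± 2293 CPM in CTRL JUN20 (SD, n = 5 each), and 46695 ± 1309 CPM in SEC OCT20 and 45086 ± 3326 CPM in CTRL OCT20. The sum over the other 19 fast members was 15667 to 16053 CPM in SEC JUN20 and 16177 to 18145 CPM in CTRL JUN20. In October it was 15377 to 17043 CPM in SEC OCT20 and 17099 to 18083 CPM in CTRL OCT20. Over all 24 fast members the sum was 58193 ± 1428 CPM in SEC JUN20 and 62036 ± 3067 CPM in CTRL JUN20 (SD, n = 5 each). In October this whole-class sum was 63091 ± 1568 CPM in SEC OCT20 and 62731 ± 3582 CPM in CTRL OCT20. The whole-class sums and the heavy chain sums overlapped between groups in both campaigns, and the sums of the other fast genes did not. This division of the fast genes was made after the values were seen and was not tested.

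Light chains sit on the neck of the myosin head. mylpfa (ENSDARG00000053254), the regulatory light chain of fast fibres, averaged 6646 ± 172 CPM in SEC JUN20 and 7173 ± 393 CPM in CTRL JUN20, and 7312 ± 314 CPM in SEC OCT20 and 7463 ± 285 CPM in CTRL OCT20 (SD, n = 5 each). It was not called (-0.11 ± 0.04, adjusted p = 0.0849, and -0.03 ± 0.04, adjusted p = 0.684), and neither was its copy mylpfb. myl1 (ENSDARG00000014196), the essential light chain of fast fibres, had 784, 841, 773, 801 and 774 CPM in the SEC JUN20 libraries and 909.9, 912, 943, 967 and 855 CPM in the CTRL JUN20 libraries. In October it had 750.4, 709, 772, 693 and 673 CPM in the SEC OCT20 libraries and 939, 930.2, 954, 962 and 859 CPM in the CTRL OCT20 libraries. The SEC libraries lay below all controls in both campaigns. myl1 fell by 13.4% in JUN20 (log2 fold change -0.21 ± 0.04 (SE), adjusted p = 0.00357) and fell by 22.6% in OCT20 (-0.37 ± 0.04 (SE), adjusted p = 2.4e-06). Within the October sides its log2 fold change was -0.42 in low-side libraries (adjusted p = 6.56e-05) and -0.34 in high-side libraries (adjusted p = 0.000137). myl13 also fell in OCT20 (log2 fold change -0.16 ± 0.04 (SE), adjusted p = 0.0123). That call was lost with October libraries alone and within the high side (adjusted p up to 0.0664). The slow regulatory light chain gene myl10 was not called, at -0.03 ± 0.04 and -0.05 ± 0.04.

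Myosin binding proteins brace the thick filament and 2 of 6 fell in each campaign, against 4.9% of all tested genes in JUN20 and 8.49% in OCT20. mybpc2b (ENSDARG00000021265), a fast myosin binding protein C gene, had 102, 99.3, 95.9, 80.9 and 105 CPM in the SEC JUN20 libraries and 119.7, 121, 131, 109.9 and 112 CPM in the CTRL JUN20 libraries. Its October values were 77.4, 77.6, 78.5, 93.7 and 75.4 CPM in the SEC OCT20 libraries and 149, 118, 132, 124 and 133 CPM in the CTRL OCT20 libraries. The SEC libraries were below every control in both campaigns, and SEC OCT20 replicate 4 was the highest of its group. mybpc2b fell by 18.6% in JUN20 (log2 fold change -0.30 ± 0.07 (SE), adjusted p = 0.012) and fell by 38.7% in OCT20 (-0.71 ± 0.07 (SE), adjusted p = 5.39e-07), the largest fall among the members called lower in October. The October effect minus the June effect was -0.41 ± 0.11 with an adjusted p of 0.0616, which missed the threshold. DESeq2 did call this difference of mybpc2b lower. Within the October sides the log2 fold change of mybpc2b was -0.70 in low-side libraries (adjusted p = 0.000461) and -0.63 in high-side libraries (adjusted p = 6.66e-05). The paralogue mybpc2a was not called, at 0.12 ± 0.10 in JUN20 and 0.04 ± 0.11 in OCT20, and the slow gene mybpc1 had -0.14 ± 0.05 (adjusted p = 0.105) and -0.14 ± 0.05 (adjusted p = 0.0926). mybphb (ENSDARG00000003081), a myosin binding protein H gene, had 1035, 1041, 1017, 1041 and 975 CPM in the SEC JUN20 libraries and 1131, 1201, 1174, 1241 and 1048 CPM in the CTRL JUN20 libraries. In October the values of mybphb were 1076, 1006, 1016, 1041 and 917 CPM in the SEC OCT20 libraries and 1169, 1124, 1151, 1084 and 1116 CPM in the CTRL OCT20 libraries. The groups did not overlap in either campaign. Its log2 fold change was -0.18 ± 0.04 (SE), adjusted p = 0.0109 in JUN20 and -0.16 ± 0.04 (SE), adjusted p = 0.0165 in OCT20. The October call of mybphb was lost with October libraries alone and within the high side (adjusted p up to 0.343). It remained in 9 of 10 fits without 1 library.

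At the Z-disc, actn3a (ENSDARG00000013755) encodes an alpha-actinin that crosslinks actin in fast fibres. It had 1088, 1066, 1101, 1060.0 and 1039 CPM in the SEC JUN20 libraries and 1204, 1261, 1194, 1226 and 1137 CPM in the CTRL JUN20 libraries. The October values of actn3a were 1144, 1089.8, 1087, 1118 and 1049.9 CPM in the SEC OCT20 libraries and 1294, 1153, 1247, 1186 and 1215 CPM in the CTRL OCT20 libraries. The SEC libraries were below all controls in both campaigns. The log2 fold change was -0.17 ± 0.04 (SE), adjusted p = 0.00431 in JUN20 and -0.15 ± 0.04 (SE), adjusted p = 0.00544 in OCT20. On the October high side the estimate was -0.07 and was not called (adjusted p = 0.34). The copy actn3b was not called (-0.11 ± 0.04, adjusted p = 0.0955, and -0.09 ± 0.04, adjusted p = 0.142).

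Myozenins bind alpha-actinin and the phosphatase calcineurin at the Z-disc. myoz1b (ENSDARG00000071445) had 119.8, 127, 125, 125 and 123 CPM in the SEC JUN20 libraries and 144, 155, 146, 133 and 142 CPM in the CTRL JUN20 libraries. For myoz1b in October the values were 123, 111, 116, 114 and 115 CPM in the SEC OCT20 libraries and 141, 136, 139, 139 and 127 CPM in the CTRL OCT20 libraries. No SEC library reached a control of its campaign. myoz1b fell in JUN20 (log2 fold change -0.22 ± 0.04 (SE), adjusted p = 0.00119) and in OCT20 (-0.24 ± 0.04 (SE), adjusted p = 0.000233), and its copy myoz1a fell in both as well, at -0.20 ± 0.05 (adjusted p = 0.00911) and -0.19 ± 0.05 (adjusted p = 0.00908). The October call of myoz1a was lost within the high side (adjusted p = 0.376). Another member of the family went the other way. myoz3a averaged 31.3 ± 1.78 CPM in SEC OCT20 and 24.6 ± 1.93 CPM in CTRL OCT20 (SD, n = 5 each) and rose by 0.35 ± 0.08 on the log2 scale (adjusted p = 0.00285). In JUN20 it had 0.12 ± 0.08 with an adjusted p of 0.377. The October call of myoz3a was lost within the low side (adjusted p = 0.133).

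At the M-line 2 of 3 myomesin genes fell in JUN20, where 4.9% of all tested genes were called lower. In OCT20 0 of the 3 were called, with 0 at an unadjusted p under 0.05 and 0 by DESeq2. myom2a (ENSDARG00000075433) had 677, 652, 648, 655 and 645 CPM in the SEC JUN20 libraries and 726, 739.9, 746, 751 and 666 CPM in the CTRL JUN20 libraries. In October the values of myom2a were 723, 661, 699, 685 and 657 CPM in the SEC OCT20 libraries and 780.2, 720.1, 742, 669 and 711 CPM in the CTRL OCT20 libraries. June's groups overlapped through a single library, CTRL replicate 5, and October's overlapped broadly. Its log2 fold change was -0.15 ± 0.04 (SE), adjusted p = 0.0257 in JUN20 and -0.08 ± 0.04 (SE), adjusted p = 0.201 in OCT20. myom1a fell in JUN20 (-0.13 ± 0.04 (SE), adjusted p = 0.0364). The June calls of myom2a and myom1a remained in 3 and 2 of 10 fits without 1 library.

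No slow skeletal gene was called lower over all libraries of a campaign, and tnnc1b was lower within the October high side. Over all tested genes 4.9% were called lower in JUN20 and 8.49% in OCT20. With 10 slow genes tested, a count of 0 is near those shares. Summed over the 11 slow genes, the level was 1756 ± 66.4 CPM in SEC JUN20 and 1728 ± 60.4 CPM in CTRL JUN20. In October it was 1964 ± 53.0 CPM in SEC OCT20 and 1801 ± 102 CPM in CTRL OCT20 (SD, n = 5 each). smyhc2 (ENSDARG00000103969), a slow heavy chain gene next to smyhc1 and smyhc3 in the gene order of GRCz12tu, had 264, 262, 255, 260.1 and 266 CPM in the SEC JUN20 libraries and 239, 236, 236, 244 and 223 CPM in the CTRL JUN20 libraries. Its October values were 292, 313, 279.8, 302 and 269.7 CPM in the SEC OCT20 libraries and 274, 230.0, 239, 221 and 239 CPM in the CTRL OCT20 libraries. All June SEC libraries were above all June controls, and in October SEC replicate 5 lay below CTRL replicate 1. smyhc2 rose in OCT20 by 21.0% (log2 fold change 0.27 ± 0.05 (SE), adjusted p = 0.000338) and had 0.15 ± 0.05 (SE), adjusted p = 0.0509 in JUN20, just outside the threshold. DESeq2 called it higher in June too. On the October sides the log2 fold change of smyhc2 was 0.20 (low side, adjusted p = 0.04) and 0.39 (high side, adjusted p = 1.83e-05). smyhc1 rose in OCT20 (0.15 ± 0.05 (SE), adjusted p = 0.0378), and smyhc3 was not called (0.09 ± 0.07). The call of smyhc1 remained in 6 of 9 alternative settings and in 4 of 10 fits without 1 library. It was lost with a replicate block, with October libraries alone and within the low side. The second identifier of smyhc2, at a mean of 0.525 CPM, had too few counts for a call. Reads of these adjacent, similar genes cannot be assigned with certainty.

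Heart genes were 4 of the 6 members that differed between the controls of the 2 campaigns. CTRL OCT20 and CTRL JUN20 larvae were compared to see how members differed between the campaigns without extract. Each SEC contrast is made within its campaign, so a shift shared by SEC and CTRL cancels in it. Here 6 members were called higher and 0 lower in CTRL OCT20, where 5.8% of all tested genes were called, 2.83% higher and 2.97% lower. At an unadjusted p under 0.05, 8 were lower, and DESeq2 called 2 lower. With October libraries of the low side only, more members were called lower than higher. Over all genes 3019 of 23759 were then lower and 2645 higher. The groups did not overlap for 4 members that were higher, myl7, tnnc1a, tnni4b.1 and tnnt2e, and for 0 that were lower, against 2.6% and 3.14% of all tested genes. The cardiac members called were myl7, tnnc1a, myl4 and myh7l, and the others were tnnt2e and tnni4b.2. myl7 (ENSDARG00000019096), the regulatory light chain of the heart, had 26.3, 26.5, 25.0, 25.0 and 25.2 CPM in CTRL OCT20 and 20.7, 18.7, 20.0, 18.0 and 22.6 CPM in CTRL JUN20. No October control came down to a June control. The log2 fold change was 0.36 ± 0.06 (SE), adjusted p = 0.00087, and it kept the call under all 8 alternatives and all 10 fits without 1 library. tnnc1a (ENSDARG00000011400), cardiac troponin C, had 6.41, 5.70, 5.80, 5.76 and 6.21 CPM in CTRL OCT20 and 3.45, 3.61, 4.46, 4.78 and 3.77 CPM in CTRL JUN20, also without overlap (0.58 ± 0.12 (SE), adjusted p = 0.00742), and its call was lost only with the high-side October controls (adjusted p = 0.0858). myl4 (ENSDARG00000011519), an atrial-type essential light chain in mammals, averaged 41.6 ± 3.53 CPM in CTRL OCT20 and 33.8 ± 3.85 CPM in CTRL JUN20 (SD, n = 5 each), with overlapping groups (0.30 ± 0.08 (SE), adjusted p = 0.0246). myh7l (ENSDARG00000079782), which RefSeq lists also as vmhcl, had 81.8, 55.4, 73.9, 62.6 and 84.4 CPM in CTRL OCT20 and 56.2, 52.3, 59.2, 60.5 and 57.2 CPM in CTRL JUN20. Its October controls on the high side, replicates 2 and 4, were the lowest of their group, and without the low side the log2 fold change was 0.05 (adjusted p = 0.79). tnnt2e averaged 116 ± 3.79 CPM in CTRL OCT20 and 106 ± 3.44 CPM in CTRL JUN20 (0.14 ± 0.04 (SE), adjusted p = 0.0325). The calls between controls of myl4, myh7l, tnnt2e and tnni4b.2 were lost with the control libraries alone and with the high-side October controls. They remained in 6 of 10 fits without 1 library for myl4, 5 for tnni4b.2, 4 for tnnt2e and 3 for myh7l.

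Within the campaigns, myl7 and tnnc1a were called lower in SEC OCT20 larvae and not in SEC JUN20 larvae. myl7 fell in OCT20, with 24.6, 23.7, 22.7, 21.1 and 20.8 CPM in SEC OCT20 against the controls given above (-0.18 ± 0.06 (SE), adjusted p = 0.0295), and had -0.03 ± 0.06 in JUN20 (adjusted p = 0.829). tnnc1a fell in OCT20 as well, with 4.47, 5.11, 3.48, 4.84 and 4.49 CPM in SEC OCT20 (-0.42 ± 0.12 (SE), adjusted p = 0.0181), and had -0.03 ± 0.12 in JUN20. The October call of myl7 was lost with October libraries alone, within the high side (-0.12, adjusted p = 0.363) and in 4 of 10 fits without 1 library. That of tnnc1a was lost with a replicate block, within each October side and without SEC OCT20 replicate 3. The difference between the campaign effects was not called for either (adjusted p = 0.454 for myl7 and 0.338 for tnnc1a), and the October contrast and the control contrast share the CTRL OCT20 libraries. myh7, listed also as vmhc and the neighbour of myh7l, fell in JUN20 (-0.19 ± 0.06 (SE), adjusted p = 0.0336) and had -0.15 ± 0.06 in OCT20 (adjusted p = 0.0638). The June call of myh7 remained in 4 of 7 alternative settings and in 4 of 10 fits without 1 library (adjusted p up to 0.0895). The sum of the 10 cardiac members was 353 ± 8.45 CPM in SEC JUN20, 383 ± 11.2 CPM in CTRL JUN20, 386 ± 10.8 CPM in SEC OCT20 and 422 ± 22.7 CPM in CTRL OCT20 (SD, n = 5 each).

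**Figure D4:**
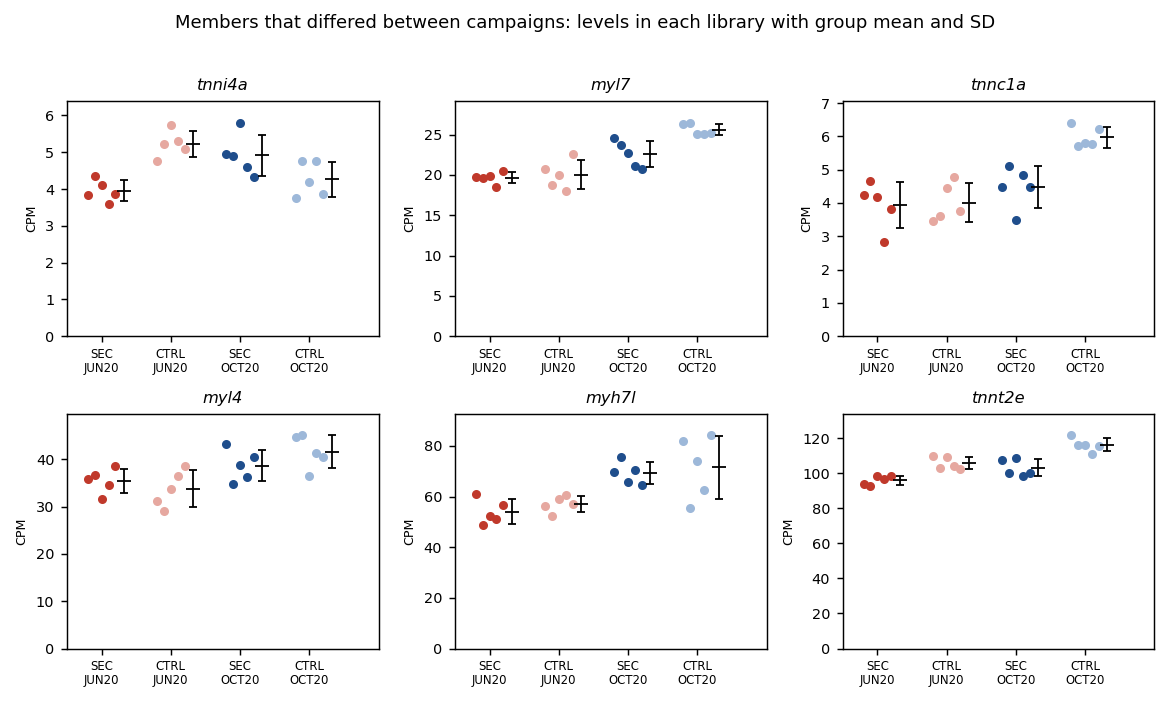
CPM of 6 members in each library (points) with the group mean and SD (bar) for SEC JUN20, CTRL JUN20, SEC OCT20 and CTRL OCT20. CTRL OCT20 lies above CTRL JUN20 for myl7, tnnc1a and tnnt2e without overlap, and tnni4a is lower in SEC than in CTRL in June, with SEC OCT20 overlapping its control in October.

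A test of the October effect minus the June effect called 1 member higher and 0 lower, where 1.03% of all tested genes were called, 0.787% higher and 0.247% lower. At an unadjusted p under 0.05, 4 members were lower, and DESeq2 called 1 lower, mybpc2b. The member called higher was tnni4a (ENSDARG00000099870), a troponin I gene whose fibre type was not assigned. It had 3.83, 4.36, 4.11, 3.60 and 3.86 CPM in the SEC JUN20 libraries and 4.76, 5.23, 5.74, 5.31 and 5.09 CPM in the CTRL JUN20 libraries. For tnni4a in October the values were 4.96, 4.89, 5.80, 4.60 and 4.33 CPM in the SEC OCT20 libraries and 3.76, 4.77, 4.19, 4.75 and 3.85 CPM in the CTRL OCT20 libraries. June's SEC libraries lay below all June controls, while October's groups overlapped with a higher SEC mean. The log2 fold change was -0.40 ± 0.09 (SE), adjusted p = 0.00545 in JUN20 and 0.21 ± 0.09 (SE), adjusted p = 0.131 in OCT20, and the difference was 0.61 ± 0.13 (adjusted p = 0.0202). Without CTRL JUN20 replicate 3 the difference was 0.58 and no longer called (adjusted p = 0.0531), nor was it called with a replicate block (adjusted p = 0.0691). Between the controls, CTRL OCT20 against CTRL JUN20, the log2 fold change was -0.30 ± 0.09 and was not called by edgeR (adjusted p = 0.0589) but was by DESeq2 (adjusted p = 0.0397).

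The sum of the 13 smooth or non-muscle members, which power contraction in vessel and gut walls or the cell cortex, differed between the sides of the October libraries, while 10 of the 13 genes overlapped between the sides. Their summed level was 1077 to 1123 CPM in the low-side SEC and 1071 to 1156 CPM in the low-side CTRL libraries, and 1202 to 1237 CPM in the high-side SEC and 1393 to 1439 CPM in the high-side CTRL libraries. The 5 low-side libraries therefore lay below the 5 high-side libraries whatever their treatment. Over single genes, 7 members were lower in every low-side than in every high-side library: tnni2a.3, actn1, myh14, myh9b, mybpha, tpm4a and tnni4a. These are 8.54% of the tested members, against 3.7% of all tested genes, and the other 76 members overlapped. Among the 13, only actn4 was called with all October libraries (log2 fold change -0.11 ± 0.04 (SE), adjusted p = 0.0397). That call was lost with October libraries alone, with a replicate block, without the filter on low counts, within the low side and in 6 of 10 fits without 1 library. Within the high side 6 of the 13 were called lower, actn1, actn4, myh9a, myh9b, myl12.1 and myl6, and within the low side 0. mybpha, a myosin binding protein H gene, was not called over all October libraries (-0.36 ± 0.22, adjusted p = 0.3) and was lower within each side, at -0.35 in low-side libraries (adjusted p = 0.0305) and -0.61 in high-side libraries (adjusted p = 7e-06).

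**Figure D5:**
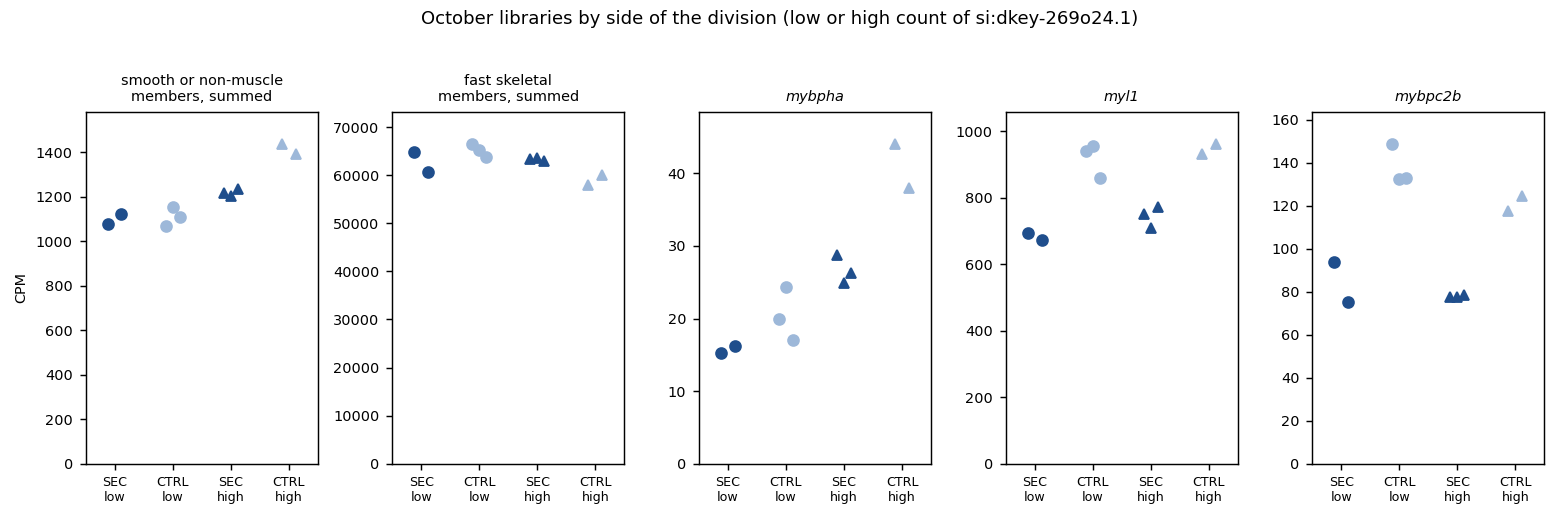
CPM in the October libraries, with SEC and CTRL of the low side (circles) followed by SEC and CTRL of the high side (triangles), for the summed smooth or non-muscle members, the summed fast skeletal members, mybpha, myl1 and mybpc2b. The summed smooth or non-muscle members are lower in the 5 low-side libraries than in the 5 high-side ones, and mybpha, myl1 and mybpc2b are lower in SEC than in CTRL on each side.

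Genes that act with the sarcomere were looked at from lists, whose counts stand beside 4.9% lower and 5.92% higher over all genes in JUN20 and 8.49% lower and 9.54% higher in OCT20. Of 39 other sarcomere structure genes 6 fell in JUN20 (15.4%), and 8 fell (20.5%) and 2 rose in OCT20. The risers included tcap, at 0.97 ± 0.23 (adjusted p = 0.00615), which had -0.49 ± 0.22 in JUN20 (adjusted p = 0.171). Its October effect minus its June effect was called, at 1.46 ± 0.32 (adjusted p = 0.033). The controls of tcap also differed, with CTRL OCT20 below CTRL JUN20 (-1.10 ± 0.23, adjusted p = 0.00949). ldb3a, a Z-disc adaptor, fell in both campaigns (log2 fold change -0.24 ± 0.06, adjusted p = 0.0175, and -0.29 ± 0.06, adjusted p = 0.00266), as did tmod4, which caps thin filaments (-0.19 ± 0.05, adjusted p = 0.0242, and -0.28 ± 0.05, adjusted p = 0.000641). desma, the intermediate filament protein desmin, fell in JUN20 (-0.29 ± 0.07, adjusted p = 0.00641), and lmod2b, which nucleates actin filaments, fell in OCT20 (-0.50 ± 0.10, adjusted p = 0.00159). Of 37 excitation-contraction genes 8 fell (21.6%) and 1 rose in JUN20, and 6 fell (16.2%) and 1 rose in OCT20. The calcium buffer gene pvalb4 fell in JUN20 (-0.15 ± 0.03, adjusted p = 0.00532). tmem38a, a cation channel of the sarcoplasmic reticulum, fell in both campaigns (-0.15 ± 0.03, adjusted p = 0.00589 in JUN20, and -0.11 ± 0.03, adjusted p = 0.0293 in OCT20), and so did the chloride channel gene clcn1b (-0.44 ± 0.11, adjusted p = 0.00957 in JUN20, and -0.34 ± 0.11, adjusted p = 0.0364 in OCT20). The receptor kinase of the neuromuscular synapse, musk, rose in both campaigns (0.21 ± 0.06, adjusted p = 0.0266 in JUN20, and 0.59 ± 0.06, adjusted p = 5.67e-07 in OCT20). The difference between its campaign effects was called too (0.38 ± 0.09, adjusted p = 0.039). The controls of musk also differed, with CTRL OCT20 below CTRL JUN20 (-0.38 ± 0.06, adjusted p = 0.00119). Its mean was 15.4 CPM in SEC JUN20 and 15.4 CPM in SEC OCT20, against 13.3 CPM in CTRL JUN20 and 10.2 CPM in CTRL OCT20. srl, which encodes a sarcoplasmic reticulum protein, fell in both (-0.16 ± 0.05, adjusted p = 0.0298 in JUN20, and -0.23 ± 0.05, adjusted p = 0.00164 in OCT20), and the calcium channel gene cacna1sb fell in OCT20 (-0.26 ± 0.07, adjusted p = 0.00779).

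Of 29 muscle energy genes 1 fell in JUN20 (3.45%), and 7 fell and 3 rose (10.3%) in OCT20. The share that fell in June and the share that rose in October are near those over all genes. The share that fell in October, 7 of 29, was above the 8.49% of all tested genes called lower there. The difference in counts was not tested. The mitochondrial ADP/ATP carrier gene slc25a4 fell in JUN20 (-0.16 ± 0.04, adjusted p = 0.0115). In OCT20 the glycolytic gene pgam2 fell (-0.32 ± 0.05, adjusted p = 0.000211), and the glycogen phosphorylase gene pygmb rose (0.20 ± 0.03, adjusted p = 0.000231) with phkg1b, a subunit of its activating kinase (0.31 ± 0.06, adjusted p = 0.000431). Of 25 genes of myosin folding and sarcomere assembly 1 fell in JUN20, smyd1a, a myosin assembly factor (-0.29 ± 0.06, adjusted p = 0.00326), and 4 fell (16%) and 2 rose (8%) in OCT20. The risers included the chaperone gene hsp90aa1.2, at 1.15 ± 0.20 (adjusted p = 0.000495). Of 29 myogenic regulators 4 fell in JUN20 (13.8%), and 6 fell (20.7%) and 1 rose in OCT20. six4b fell in both campaigns (-0.31 ± 0.08, adjusted p = 0.0164, and -0.35 ± 0.08, adjusted p = 0.00471), and sox6, which holds back slow genes in fast fibres, fell in JUN20 (-0.24 ± 0.06, adjusted p = 0.0132). The myoblast fusion gene mymk fell in OCT20 (-0.40 ± 0.09, adjusted p = 0.00355).

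Of 23 muscle wasting genes 2 rose and 2 fell in JUN20 (8.7% each), and 2 rose (8.7%) and 1 fell (4.35%) in OCT20, which are counts of 1 or 2 genes near the shares over all genes. The lists share genes, and musk is counted both here and among the excitation-contraction genes. gadd45aa, a stress-induced gene, rose in both campaigns (0.57 ± 0.11, adjusted p = 0.00124, and 1.04 ± 0.11, adjusted p = 3.11e-07), and foxo3a fell in both (-0.21 ± 0.05, adjusted p = 0.00434, and -0.27 ± 0.05, adjusted p = 0.000238). Markers of other tissues and of muscle precursors gave these counts. Of 9 further heart genes 2 fell in OCT20, nppa and ryr2b. Estimates lay below 0 for 4 of these 9 in OCT20, and their median log2 fold change was 0.05. Among 11 smooth muscle genes 1 fell in JUN20, smtnb, and 2 fell in OCT20, smtnb and cald1b, and among 7 genes of muscle precursors 1 and 3 fell. The precursor genes pax7b and mymk are also counted among the myogenic regulators. All 3 skin keratins fell in both campaigns, and 2 of 3 neuronal genes fell in JUN20. The liver and pancreas genes, 3 each, were not called in either campaign.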

How the data were processed

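Each library came from the RNA of 10 pooled whole larvae, prepared as a stranded mRNA library with molecular identifiers and read in pairs on a NovaSeq instrument, per the labels' protocols. The deposited values are raw read counts per gene in 20 libraries. The submitters' processing notes name STAR 2.7.8a, zebrafish build GRCz11, CASAVA, SAMtools and DESeq2 (as version 3.17). They do not name the counting tool or the annotation release, nor say if duplicates were removed by molecular identifier.

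Low-count genes were removed with edgeR's filterByExpr (minimum count 10), and the 23121 of 32520 genes that remained held 99.97% or more of every library. Scaling used TMM factors. The test was edgeR 4.0.16 in R 4.3.3 (robust quasi-likelihood F test, all 20 libraries, 4 group means, two-sided), with Benjamini-Hochberg adjustment over the 23121 genes and calls under 0.05. A standard error is the absolute log2 fold change divided by the square root of F. CPM values are TMM-normalised, and since CPM is not scaled by length, levels are not compared between genes. Alternatives were DESeq2 1.42.0, RLE factors, library totals, no filter, a stricter filter, a replicate block, each campaign alone, each library left out and, chosen after the data were seen, each side of the October division. The code of the tests was also run on simulated counts with the same dispersion for every gene. Real genes differ in spread, so that run does not show how the tests perform on these data.

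Members, classes and lists were chosen with earlier results of these data known. Values in every library, or the mean with its SD, are given for the member of each family with the highest mean CPM and the one with the smallest p in a SEC contrast, and for the 5 with the smallest p in each other contrast. From each list up to 3 genes a campaign with the smallest p could be named, and tcap was added for its rise in October. Neighbours follow RefSeq's order in GRCz12tu, which held the symbols of 82 members. No sequences or coordinates were used.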

Additional observations from a re-analysis of the deposited data

Results flagged for a closer look

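In 22 members the 5 libraries of each group were compared, 88 groups in all, and in 4 of them 1 library stood far from the other 4 by Dixon's criterion; chance alone picks about 1 in 20 groups. myom2a was at 677 CPM in SEC JUN20 replicate 1 and at 645 to 655 CPM in the other libraries of the group. mybpc2b was at 93.7 CPM in SEC OCT20 replicate 4, against 75.4 to 78.5 CPM in the others, and its October fall was called with any 1 library left out. myhz1.1 (ENSDARG00000067990) was at 19308 CPM in SEC JUN20 replicate 2, where the other libraries lay between 21268 and 21833 CPM. tpm1 was at 182 CPM in SEC JUN20 replicate 4, against 193 to 194 CPM in the others.

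The effect of the extracts on tnni4a differed between the campaigns, by 0.615 on the log2 scale (OCT20 effect minus JUN20 effect, adjusted p = 0.0202, edgeR). The difference was not called with a replicate block (adjusted p = 0.0691) or without CTRL JUN20 replicate 3 (adjusted p = 0.0531). All 5 SEC JUN20 pools lay below all 5 CTRL JUN20 pools, and tnni4a stood at 3.60 to 5.80 CPM over all 20 libraries.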

How the results depend on the processing

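In JUN20 the count of members called lower was 16, and 11 to 24 under the 7 alternatives that use whole groups; in OCT20 it was 19, and 12 to 21. With 1 library left out the counts were 12 to 18 lower in JUN20 (fast skeletal genes 9 to 13) and 0 to 0 higher, and 12 to 24 lower in OCT20 (fast 9 to 11) and 2 to 4 higher. The 12 came without SEC OCT20 replicate 5 and the 24 without CTRL OCT20 replicate 5. For the difference of the campaign effects they were 0 to 1 lower and 0 to 1 higher (0 without CTRL JUN20 replicate 3). Between controls 0 to 5 were lower (5 without CTRL OCT20 replicate 2) and 2 to 7 higher (2 without CTRL JUN20 replicate 2). DESeq2, RLE factors, library totals, the stricter filter and June libraries alone each called 1 member higher in JUN20. October libraries alone gave 12 lower in OCT20. The high side gave 6 higher and 6 fast genes lower in OCT20. It gave 3 lower and 3 higher for the difference, where 345 and 498 of 23513 tested genes were called. For the difference DESeq2 and library totals each called 1 lower. Between controls DESeq2 called 2 lower (946 of 22520 over all genes), and the control libraries alone 2 higher (240 of 22569). The low side gave 26 lower and 10 higher between controls, where 3019 and 2645 of 23759 tested genes were called. The causes of these shifts were not tested.

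A replicate block left 0 members with a called difference between campaigns (1 without it) and moved no other count by over 1.5 times. In JUN20 same-numbered libraries did not deviate together (correlations from -0.0509 to 3.46e-05, best with their own number in 0 of 5). In OCT20 the correlations ran from -0.454 to 0.28 (best with their own number in 2 of 5). There they were above 0 only where both libraries stood on the same side of the division. The labels do not say if the numbers pair the libraries, and these correlations cannot decide it.

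Signs turned for 5 small estimates. In JUN20 myl7 was 0.0037 with library totals and -0.0610 to 0.0185 with 1 library left out (above 0 without CTRL replicate 5). For tnnc1a in JUN20 the value was 0.0050 with library totals and -0.0902 to 0.0710 with 1 library left out (above 0 without SEC replicate 4, CTRL replicate 3 or CTRL replicate 4). In OCT20 the high-side libraries gave 0.0062 for myom2a, 0.0563 for mylpfa and 0.262 for myh7l (adjusted p = 0.0462), and myh7l was -0.123 to 0.0161 with 1 library left out (above 0 without CTRL replicate 1 or 5).

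Depth limits chiefly tnni1a, the second smyhc2 and myh11b, whose mean CPM was lowest.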
